A study of Mus musculus with 88 samples.

Results

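Collagens, laminins and other basement membrane and interstitial matrix genes were followed in mouse embryonic stem cells (ESCs) lacking subunits of the Polycomb repressive complex PRC2. The 43 genes were taken by name: 7 fibrillar collagens, 6 type IV collagens, 6 other collagens, 9 laminin chains, 4 nidogens and basement membrane proteoglycans, 4 matrix glycoproteins, 4 elastic fibre genes and 3 interstitial proteoglycans. All 43 were among the 53697 genes of the mesoderm count table, the 54393 of the endoderm count table and the 26007 of the bulk embryoid body (EB) table, and 39 were among the 15830 genes of the single-cell table, from which Col4a3, Col4a4, Lama2 and Lamb3 were absent.

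The basement membrane is a thin sheet built on type IV collagen and laminin networks, which nidogens and the heparan sulfate proteoglycans perlecan (Hspg2) and agrin (Agrn) link together. Laminin is a trimer of an alpha, a beta and a gamma chain, and the trimer of Lama1, Lamb1 and Lamc1 products is the form typical of the early embryo. Parietal endoderm, the extraembryonic layer that lays down Reichert's membrane, is known for making large amounts of type IV collagen, laminin and the matrix glycoprotein Sparc. Fibrillar collagens such as Col1a1 and Col3a1, together with periostin (Postn), are typical products of mesenchyme and fibroblasts.

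In the monolayer experiment, wild-type (WT) E14 ESCs, Mtf2 null ESCs carrying a gene trap on both alleles and Jarid2 null (Jarid2-/-) ESCs, all grown in serum and LIF, were collected undifferentiated (UD) and after 5, 24 and 48 h of directed differentiation toward mesoderm or endoderm. Mid primitive streak medium (Activin A, BMP4, CHIR99021 and FGF2) was followed by A-83-01 and BMP4 for lateral mesoderm, and anterior primitive streak medium (Activin A, CHIR99021 and FGF2) by Activin A and DM3189 for definitive endoderm. Each genotype and time had 2 libraries per series, which the study calls technical duplicates, so the p-values measure the spread between these libraries only. The 48 libraries held 9111880 to 16898264 counts each. The second experiment was a bulk EB time course (days 0, 2, 4 and 7) of lines labelled Mtf2 null, Jarid2 null and Eed null beside Pcl1-3 WT, JM8 and J1, the WT lines that the study matched to them by background in that order. Its day 0 columns are headed mono, read here as monolayer, and the columns of the later days eb, although the sample titles give EB at day 0 too. The single-cell experiment held 4949 cells from 16 plates, with 1 library per genotype at days 0, 4, 7 and 10 of EB differentiation, the genotypes being the 3 above and Eed null (Eed-/-). Each genotype was represented by a single line, so genotype and line cannot be told apart in the monolayer and single cells either. The monolayer WT is given as E14, and the background-matched WT lines named above were part of the bulk EB experiment.

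The targeted transcripts checked some of these labels and not others. Mtf2 was at 30.16 to 35.04 CPM (counts scaled to a library total common to all libraries) in the Mtf2 null monolayer libraries at UD and 48 h, against 206 to 509 CPM in WT. Jarid2 was little lower in the undifferentiated Jarid2 null libraries of the mesoderm series (326.0 and 308.5 CPM, against 473.3 and 362.5 in WT), so its transcript did not check that label. In the single-cell libraries Mtf2 was at 53.7 to 61.1 CPM of unique molecular identifiers (UMIs) in Mtf2 null against 364.8 to 793.5 in WT, Jarid2 at 115.0 to 184.7 in Jarid2 null against 214.6 to 594.5, and Eed at 1.33 to 11.5 in Eed null against 115.2 to 478.0. The bulk EB libraries did not show such losses, and at day 0 Mtf2 was lower in the library labelled Jarid2 null (129.2 CPM) than in the one labelled Mtf2 null (323.9 CPM). The EB mutants are therefore named as labelled, and the counts of calls for the EB mutants are given with and without day 0.

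Some of the genes are close neighbours. Col4a1 (GRCm38, chromosome 8, 11198423 to 11312826, minus strand) and Col4a2 (11312805 to 11449287, plus strand), which encode the alpha 1 and alpha 2 chains of the ubiquitous type IV collagen, start head to head, and their transcript starts overlap by 22 bases. The overlap is shown because both genes were higher than WT in the Mtf2 null at UD and at 48 h of both series, with the GC box (GGGCGG or CCGCCC) in capitals.

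Col4a1 and Col4a2, chr8:11312805-11312826, plus strand: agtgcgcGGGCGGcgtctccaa

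Upstream bases of 2 further genes that were higher in the undifferentiated Mtf2 null, Lamb1 and Hspg2, and of 2 that were lower in an Mtf2 null comparison, Col5a1 and Vcan, are shown with the same capitals, each ending next to the transcript start. They come from the GRCm38.p6 RefSeq promoter windows, which cover 250 bases before to 50 bases after a start and were present for 28 of the 43 genes.

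Lamb1, chr12:31265043-31265233, plus strand: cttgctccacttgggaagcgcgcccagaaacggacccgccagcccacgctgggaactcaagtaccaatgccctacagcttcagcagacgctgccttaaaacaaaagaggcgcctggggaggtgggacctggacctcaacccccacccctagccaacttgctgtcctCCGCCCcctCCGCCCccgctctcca

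Hspg2, chr4:137468553-137468768, plus strand: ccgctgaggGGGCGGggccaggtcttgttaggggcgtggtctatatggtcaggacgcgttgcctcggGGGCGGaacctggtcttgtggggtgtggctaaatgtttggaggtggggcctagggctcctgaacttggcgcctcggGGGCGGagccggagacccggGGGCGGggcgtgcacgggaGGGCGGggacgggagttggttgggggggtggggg

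Col5a1, chr2:27886175-27886424, plus strand: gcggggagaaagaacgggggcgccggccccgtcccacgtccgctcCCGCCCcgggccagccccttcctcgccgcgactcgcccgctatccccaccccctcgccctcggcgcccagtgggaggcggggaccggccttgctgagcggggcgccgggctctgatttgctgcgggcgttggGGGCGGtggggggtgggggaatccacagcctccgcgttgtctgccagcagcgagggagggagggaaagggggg

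Vcan, chr13:89742510-89742762, minus strand: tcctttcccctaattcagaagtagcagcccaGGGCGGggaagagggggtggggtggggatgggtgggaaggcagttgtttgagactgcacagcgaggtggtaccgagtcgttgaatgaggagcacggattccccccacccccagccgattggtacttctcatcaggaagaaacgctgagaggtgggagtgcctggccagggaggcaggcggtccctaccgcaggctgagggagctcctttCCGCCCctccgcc

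Hspg2 holds 5 GC boxes in the stretch shown and the other 3 genes hold 2 each, so the letters did not separate the genes that were higher from those that were lower. Over the full windows, 22 of 36 windows of these genes (19 of 28 genes) held GGGCGG on either strand, against 35.7% of 32851 windows. CCAAT was in 11 of 36 windows against 37.4% of all, and TATAAA in 4 of 36 against 13.6%, each motif being counted on both strands and by itself. These are matches of letters and say nothing of which factor binds. A pair of type IV collagen genes on chromosome X, Col4a5 and Col4a6, also faces head to head, with 1342 bases between the starts of the RefSeq windows.

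The comparison of undifferentiated cells asks whether the matrix genes already differed before differentiation began. In the Mtf2 null the components of the laminin alpha 1, beta 1, gamma 1 trimer, both chains of the ubiquitous type IV collagen, Sparc and Hspg2 were all higher than in WT. Calls were made with edgeR's quasi-likelihood test, at an adjusted p (Benjamini-Hochberg) under 0.001 together with a log2 fold change over 1 in size, and 33 of the 43 genes had counts enough to be tested. Of these 33, 12 were called, 11 higher and 1 lower, while 14.5% of all 19601 genes tested were called. The median log2 fold change was 0.99 over the 33 genes and -0.05 over all genes. Col3a1, Col4a3, Col4a4, Col4a6, Col6a3, Col9a1, Postn, Tnc, Lum and Dcn were not tested.

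Among the type IV collagens, Col4a1 was at 72.4 and 65.1 CPM in the WT libraries of the mesoderm series and at 69.7 and 68.02 CPM in those of the endoderm series. The Mtf2 null libraries were at 489.4 and 632.9 CPM and at 444.4 and 581.9 CPM, so that the lowest Mtf2 null library lay far above the highest WT library. The log2 fold change of Col4a1 was 2.97 (SE 0.12, edgeR adjusted p = 3.2e-20). Its head-to-head partner Col4a2 ran from 34.1 to 37.9 CPM in WT and from 235.7 to 329.3 CPM in the Mtf2 null, again without overlap. The difference was 3.01 (SE 0.11, edgeR adjusted p = 8.01e-21), of the same size as that of Col4a1. Col4a5, which encodes a chain of the kidney and testis network, was near the detection limit in every library and was not called (log2 fold change -1.93, SE 0.58, edgeR adjusted p = 0.00555).

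The laminin chains divided into those called and those not called. Lama1, the alpha chain of embryonic laminin, was at 203.9 and 166.5 CPM and at 184.3 and 160.1 CPM in WT, and at 720.8 and 865.1 CPM and at 634.3 and 819.4 CPM in the Mtf2 null. No Mtf2 null library came near the WT range, and the log2 fold change was 2.09 (SE 0.10, edgeR adjusted p = 3.13e-18). Lamb1, its beta partner, rose from 69.8 to 82.0 CPM in WT to 316.6 to 439.0 CPM (log2 fold change 2.33, SE 0.10, edgeR adjusted p = 9.12e-19). Lamc1, the gamma chain shared by most laminins, was at 252.5 to 379.5 CPM in WT and 827.9 to 973.2 CPM in the Mtf2 null (1.54, SE 0.10, edgeR adjusted p = 2.69e-14). The 3 chains of this trimer were thus all higher, with no overlap of the groups. Lama3 and Lamb3, chains of the epithelial laminin of hemidesmosomes, were called at much lower levels. Lama3 ran from 1.23 to 1.78 CPM in WT and from 6.36 to 9.44 CPM in the Mtf2 null (log2 fold change 2.32, SE 0.15, edgeR adjusted p = 6.48e-15), and Lamb3 from 1.18 to 1.87 CPM and from 2.68 to 4.46 CPM (1.31, SE 0.23, edgeR adjusted p = 1.29e-05). Lama5, the broadly used epithelial alpha chain, fell just short of the fold threshold at 0.93 (edgeR adjusted p = 2.63e-12), although its groups did not overlap either, and Lamb2 was at 0.60. Lama2 and Lama4, the alpha chains of muscle and vessels, did not pass (0.42 and -0.72).

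The linkers of the sheet did not move as a group. Hspg2 was at 415.8 and 317.5 CPM and at 402.6 and 323.3 CPM in WT, against 742.3 and 809.4 CPM and 700.7 and 773.7 CPM in the Mtf2 null (log2 fold change 1.06, SE 0.09, edgeR adjusted p = 5.7e-12). Nid2 went the other way, with 214.3 to 282.4 CPM in WT and 136.9 to 163.7 CPM in the Mtf2 null, but its log2 fold change of -0.71 did not reach the fold threshold (edgeR adjusted p = 1.83e-08). Nid1 (0.60) and Agrn (0.55) were below that threshold too, as was Col18a1, a basement membrane collagen that carries endostatin, at 0.99 (edgeR adjusted p = 1.11e-10).

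Sparc, a calcium-binding glycoprotein that binds collagen, was at 87.4 and 68.7 CPM and at 83.3 and 62.7 CPM in WT. It was at 248.2 and 305.4 CPM and at 234.3 and 288.8 CPM in the Mtf2 null (log2 fold change 1.84, SE 0.12, edgeR adjusted p = 6.14e-15), well clear of WT. Fibronectin (Fn1), which cells use to adhere and migrate, ran from 336.8 to 490.2 CPM in WT and from 796.5 to 893.3 CPM in the Mtf2 null (1.02, SE 0.10, edgeR adjusted p = 3.25e-10). Elastin (Eln) was called from few counts, at 0.375 to 0.947 CPM in WT and 1.84 to 2.91 CPM in the Mtf2 null (1.79, SE 0.37, edgeR adjusted p = 0.000116). Its calls and those of Fn1 and Hspg2 were lost when some single library was left out, whereas the other 9 were kept whichever library was left out. This is a weak check, since a library of 1 series may have its like in the other series, as described below. Lamb3, among these 9, was not called once same-numbered libraries were summed.

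The one gene that was lower was a fibrillar collagen. Col5a1, which nucleates type I collagen fibrils, was at 14.9 and 12.3 CPM and at 13.3 and 11.1 CPM in WT, and at 2.71 and 4.25 CPM and at 1.42 and 4.29 CPM in the Mtf2 null. The groups did not overlap, and the log2 fold change was -2.03 (SE 0.18, edgeR adjusted p = 3.61e-11). Of the other fibrillar collagens, Col1a1, the main collagen of bone and skin, was at 0.474 to 1.70 CPM in WT and did not pass (-1.14, SE 0.43, edgeR adjusted p = 0.027). Fbn2, a microfibril gene, was also lower without being called (-1.01, SE 0.31, edgeR adjusted p = 0.00633).

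**Figure D1:**
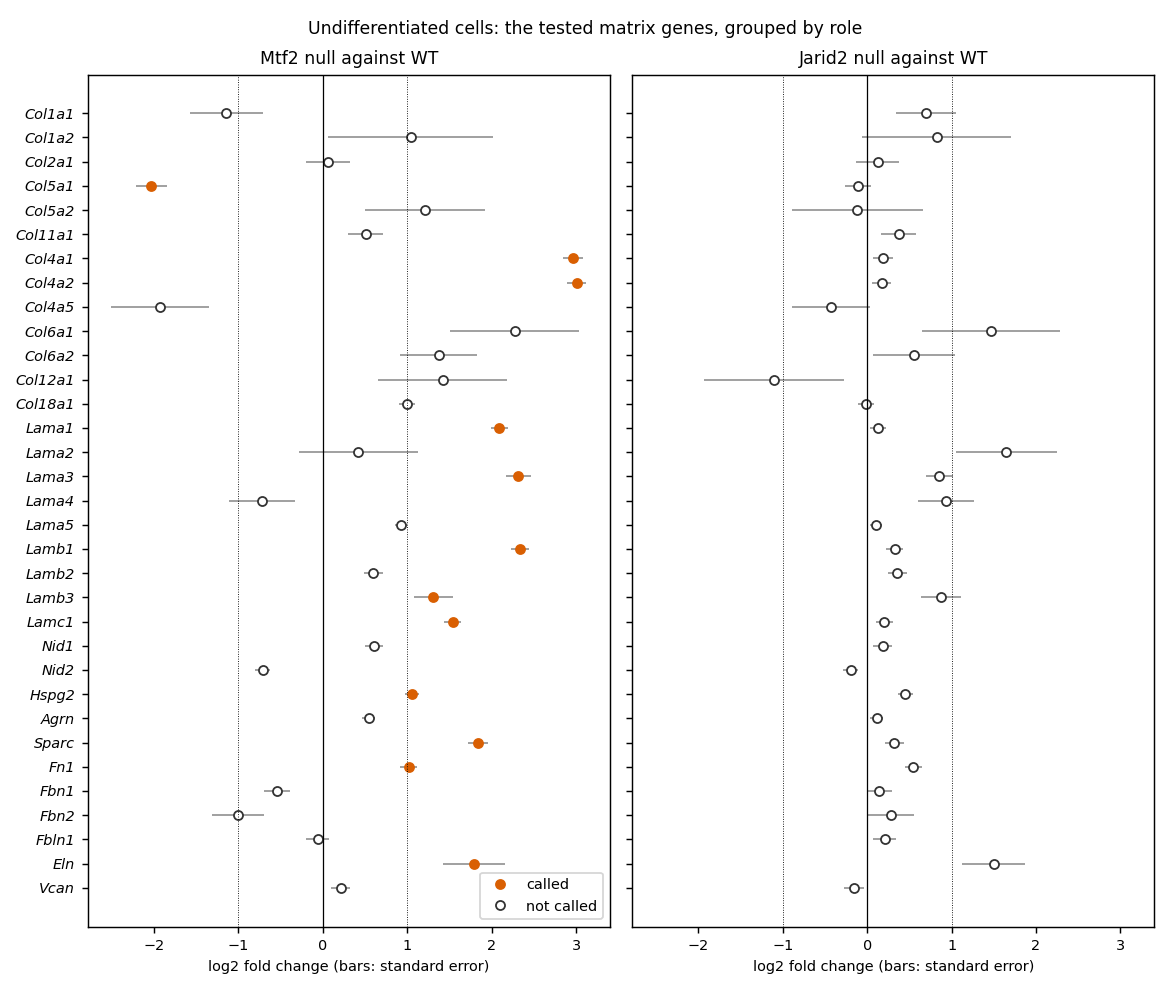
Log2 fold change with its standard error, from edgeR, of the 33 matrix genes tested in undifferentiated cells, for Mtf2 null against WT and Jarid2 null against WT (4 libraries per genotype over both series). Filled points were called and dotted lines mark a log2 fold change of 1 in either direction; Col4a1 and Col4a2 lie near 3 in the Mtf2 null, Col5a1 near -2, and no point is filled for the Jarid2 null.

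In the undifferentiated Jarid2 null, none of the 33 genes was called (1.31% of all genes were), and the median log2 fold change was 0.21 against 0.01 over all genes. At an adjusted p under 0.05 with no fold threshold, 10 of the 33 passed, all of them higher, beside 21.1% of all genes. The smallest adjusted p were those of Fn1 (log2 fold change 0.55, SE 0.10, edgeR adjusted p = 0.000143), Hspg2 (0.45, SE 0.09, edgeR adjusted p = 0.000261) and Lama3 (0.85, SE 0.16, edgeR adjusted p = 0.000648). Col4a1 was at 88.1 and 69.1 CPM and at 85.5 and 69.9 CPM in the Jarid2 null, which overlaps the WT range. Its log2 fold change of 0.19 (SE 0.11, edgeR adjusted p = 0.258) was not called. A direct comparison of the mutants called 12 of the 33 genes (14.0% of all genes), 8 higher and 4 lower in the Mtf2 null. Col4a1 (2.78), Col4a2 (2.83), Lamb1 (2.01), Lama1 (1.96), Sparc (1.52), Lama3 (1.46), Lamc1 (1.34) and Col18a1 (1.00) were higher. Col5a1 (-1.93), Col1a1 (-1.84), Lama4 (-1.65) and Fbn2 (-1.29) were lower, and of these Col1a1, Lama4 and Fbn2 were at a few CPM or less. The calls of Col18a1, Col1a1, Lama4 and Fbn2 were lost without some single libraries, where Col18a1 went down to 0.94 and Fbn2 to -1.03, and the other 8 were kept.

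The undifferentiated libraries of the mesoderm and endoderm series resembled each other by number. Over 9679 genes, the median chi-square per gene between same-numbered libraries of the series was 0.906 to 1.60, against 1.78 to 3.37 between replicates of a series and 0.455 from sampling noise alone. They may come from the same RNA, so same-numbered libraries were also summed, leaving 2 per genotype. Leaving out 1 undifferentiated library would then keep its like in the fit, so calls kept in that way are not shown to be robust. In that fit 11 of the 30 genes tested were called for Mtf2 null against WT (10 higher, 1 lower), 0 for Jarid2 null against WT and 9 for Mtf2 null against Jarid2 null (8 higher, 1 lower). Col18a1 joined the Mtf2 null calls (1.03), and Lamb3 and Eln left them.

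Many genes of a list of parietal and visceral endoderm markers were higher in the undifferentiated Mtf2 null as well. Of 16 parietal and visceral endoderm markers, 14 were tested in undifferentiated cells, and 11 were higher and 0 lower in the Mtf2 null (median log2 fold change 2.85). The largest were Cubn (4.06), an endocytic receptor of visceral endoderm, the endoderm transcription factors Foxa2 (3.62) and Sox17 (3.42), and Srgn (3.37). Summed over the 16 markers, the level was 299.1 to 385.2 CPM in the WT libraries, 1517 to 1975 CPM in the Mtf2 null and 400.1 to 615.04 CPM in the Jarid2 null, and Thbd, Ttr, Afp and Apoa1 were under 1 CPM in the undifferentiated WT and Mtf2 null libraries. The list holds Apoe, which is abundant in undifferentiated cells. It had 3935 and 1200 UMIs, not scaled to cell number or depth, in the undifferentiated single-cell clusters 0 (mostly Mtf2 null) and 3 (mostly WT), where Dab2 had 19 and 6. Apoe may therefore carry much of the summed levels, and its part was not separated. Nor are all the listed genes particular to endoderm. Gata6 had 551 and 481 UMIs in the mesodermal single-cell clusters 4 and 13, and 65 in the endodermal cluster 21, which holds fewer cells. None of the tested markers was called in the Jarid2 null. In bulk libraries, fewer cells of a type and less RNA per cell cannot be told apart, and the part of these markers' cells in the matrix differences was not tested. In the other marker lists, 5 of 11 tested mesenchyme markers were higher and 1 lower, 2 of 8 endothelial markers were higher (Tek 2.60, Cdh5 2.35), 1 of 7 fibroblast markers was higher, 1 of 9 neural ectoderm markers was higher and 2 lower, and 2 of 10 pluripotency markers were higher and 1 lower. Over all genes 14.5% were called in this comparison.

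Some genes that act on the matrix were called as well. Of 21 tested genes of collagen folding, secretion and crosslinking, 3 were higher in the undifferentiated Mtf2 null and 0 lower, a share near the 14.5% of all genes called. They were the collagen chaperone Serpinh1 (2.11), the lysyl oxidase Loxl4 (1.86) and the prolyl hydroxylase P3h2 (1.63). Of 22 integrins and other receptors, 5 were higher, among them Itga1 (3.22), a receptor for collagen IV, and Sdc4 (2.40), and 1 was lower (Itgb3, -2.92). Of 17 matrix proteases and inhibitors, 8 were higher, led by Adamts1 (2.44), Plaur (2.15), Adam19 (2.05) and Timp3 (2.02), and 1 was lower.

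Per length of transcript the order of the genes shifted with genotype. In undifferentiated WT cells the highest were Nid2 (48.2 CPM per kb), Lamc1 (38.03), Fn1 (35.7), Col18a1 (33.2) and Hspg2 (25.5). In the undifferentiated Mtf2 null they were Lamc1 (110.2 CPM per kb), Lama1 (78.5), Fn1 (72.1), Col4a1 (71.96) and Sparc (71.1), and these last 3 lay within a few percent of each other. The 43 genes together took 0.226% to 0.293% of all counts in the undifferentiated WT libraries of the mesoderm series and 0.610% to 0.676% in the Mtf2 null.

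A minority of these genes changed in WT cells over 48 h of directed differentiation, though a larger share than over all genes. Toward mesoderm 6 of the 32 genes tested were called (8.64% of all genes), 4 higher and 2 lower. Toward endoderm 7 of 31 were called (8.15% of all genes), 5 higher and 2 lower. Col1a2 was not tested in either series, nor Col6a1 in the endoderm series, beside the 10 genes named above. Without some single library Lamb2 fell under the fold threshold in both series (0.91 and 0.90), Nid1 in mesoderm (-0.76) and Col18a1 in endoderm (0.83 and 0.87), and the other 4 calls in mesoderm and 5 in endoderm were kept.

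Col2a1, the collagen of cartilage and notochord, was at 8.96 and 8.40 CPM at 48 h of mesoderm and at 15.3 and 8.76 CPM at 48 h of endoderm. Its log2 fold change over UD was 2.52 (SE 0.30, edgeR adjusted p = 2.16e-06) in mesoderm and 2.67 (SE 0.29, edgeR adjusted p = 3.09e-07) in endoderm. Lamb3 rose from 1.18 and 1.62 CPM to 15.8 and 22.5 CPM in mesoderm, with 3.62 and 2.70 CPM at 24 h (3.75, SE 0.29, edgeR adjusted p = 4.72e-09). In endoderm it reached 8.84 and 9.89 CPM (2.58, SE 0.29, edgeR adjusted p = 4.94e-07). Lamb2, the beta chain of synaptic and kidney laminins, was higher in both series as well (1.10 and 1.14). Sparc was called in mesoderm and not in endoderm (1.44, SE 0.15, edgeR adjusted p = 2.85e-07), at 182.4 and 241.8 CPM at 48 h, and Col18a1 (1.00) and Vcan (1.20) in endoderm and not in mesoderm.

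Lama1 went down in both series. From 203.9 and 166.5 CPM at UD it reached 123.8 and 126.5 CPM at 24 h and 59.4 and 70.3 CPM at 48 h of mesoderm (log2 fold change -1.51, SE 0.14, edgeR adjusted p = 4.98e-08). In endoderm it reached 35.5 and 28.9 CPM (-2.42, SE 0.15, edgeR adjusted p = 1.43e-10). Nid1, the linker of laminin and type IV collagen, dropped likewise, to 56.6 and 59.2 CPM in mesoderm (-1.09, SE 0.15, edgeR adjusted p = 1.25e-05) and 47.8 and 43.7 CPM in endoderm (-1.48, SE 0.15, edgeR adjusted p = 1.45e-07). The decline of both genes was visible in each library at 48 h.

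The test of the difference between the series called none of the 33 genes (1.35% of all genes). The nearest were Col4a2 (1.11 toward mesoderm, SE 0.23, edgeR adjusted p = 0.00204) and Col4a1 (1.10, SE 0.23, edgeR adjusted p = 0.00203). Col4a1 was at 79.2 and 93.6 CPM at 48 h of mesoderm and at 45.4 and 35.5 CPM at 48 h of endoderm. With an adjusted p under 0.05 and no fold threshold 7 of the 33 genes passed, beside 5.85% of all genes. The calls named above as present in a single series are not shown to differ between them.

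**Figure D2:**
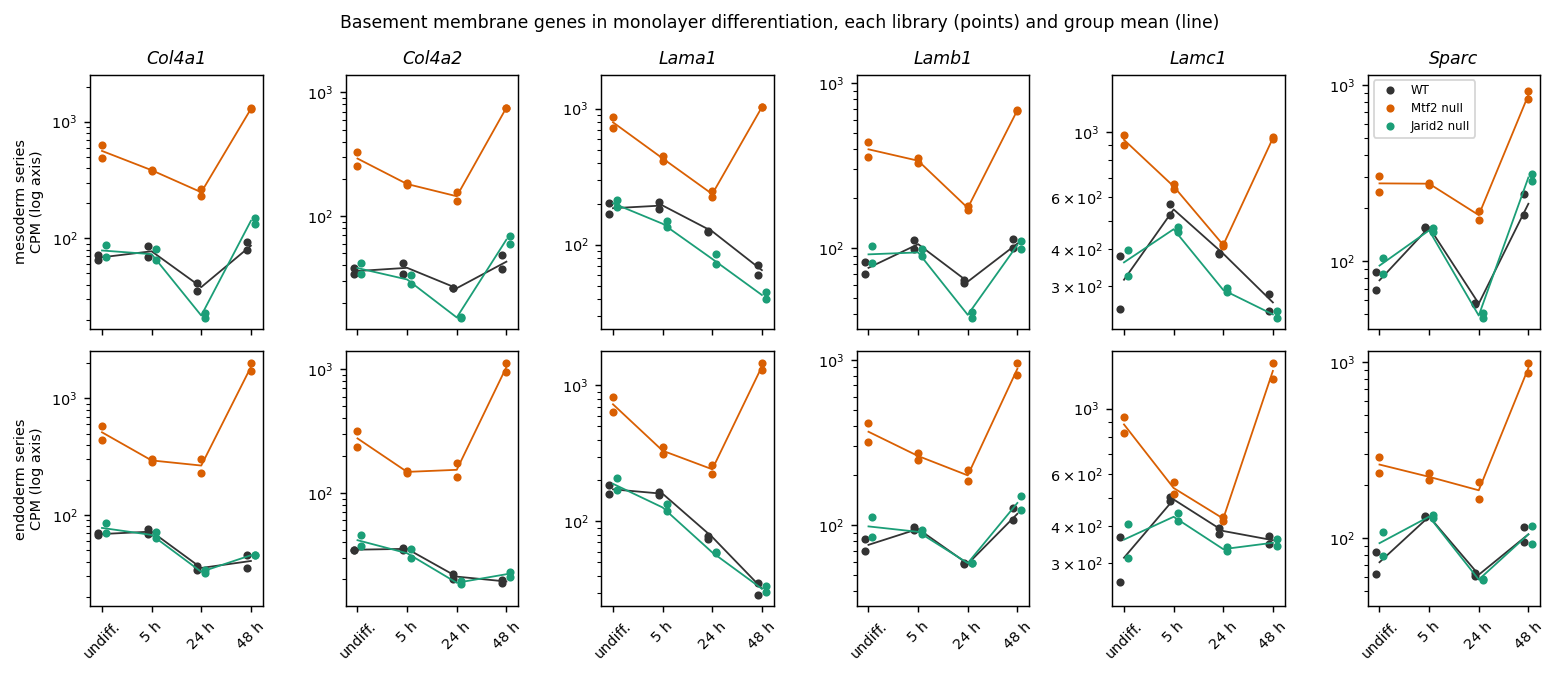
CPM on a log axis of Col4a1, Col4a2, Lama1, Lamb1, Lamc1 and Sparc against time of directed differentiation (UD, 5, 24 and 48 h), with the mesoderm series above and the endoderm series below. Points are libraries (2 per genotype and time) and lines join their means; the Mtf2 null reached 1274 and 1299 CPM of Col4a1 at 48 h of mesoderm and 2017 and 1705 CPM at 48 h of endoderm, while WT stayed under 100 CPM.

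At 48 h the genes that were higher in the Mtf2 null were again mainly those of the basement membrane. In mesoderm 9 of 32 genes were called (6.82% of all genes), 8 higher and 1 lower, with a median log2 fold change of 0.14. In endoderm 9 of 31 were called (10.5% of all genes), again 8 higher and 1 lower, with a median of 0.25.

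Col4a1 in the Mtf2 null went through a minimum: it was at 388.7 and 378.4 CPM at 5 h, 229.4 and 267.1 CPM at 24 h and 1274 and 1299 CPM at 48 h of mesoderm. WT was at 79.2 and 93.6 CPM at 48 h, and the log2 fold change was 3.90 (SE 0.17, edgeR adjusted p = 5.84e-13). In endoderm the Mtf2 null was at 2017 and 1705 CPM against 45.4 and 35.5 CPM in WT (5.52, SE 0.18, edgeR adjusted p = 6.72e-16). Col4a2 followed it, at 750.7 and 753.9 CPM against 37.3 and 48.4 CPM in mesoderm (4.14, SE 0.16, edgeR adjusted p = 1.4e-13) and at 1124 and 958.5 CPM against 19.7 and 18.8 CPM in endoderm (5.76, SE 0.17, edgeR adjusted p = 2.53e-16). No WT library of either series came within reach of the Mtf2 null values.

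Lama1, which fell in WT, was at 1019 and 1031 CPM in the Mtf2 null at 48 h of mesoderm (log2 fold change over WT 3.98, SE 0.15, edgeR adjusted p = 6.09e-14). In endoderm it was at 1464 and 1289 CPM (5.42, SE 0.16, edgeR adjusted p = 3.05e-16). Its partners, which were not called lower in WT, differed from WT by less. Lamb1 differed by 2.69 in mesoderm (SE 0.14, edgeR adjusted p = 6.34e-12) and 2.92 in endoderm (SE 0.15, edgeR adjusted p = 2.59e-12), and Lamc1 by 1.84 (SE 0.15, edgeR adjusted p = 7.4e-09) and 1.90 (SE 0.14, edgeR adjusted p = 8.56e-10). Lama3 differed by 2.59 and 2.61, from WT levels of 2.22 to 3.01 CPM.

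Sparc was at 923.7 and 832.1 CPM against 182.4 and 241.8 CPM at 48 h of mesoderm (log2 fold change 2.05, SE 0.15, edgeR adjusted p = 1.75e-09), and at 986.0 and 860.5 CPM against 94.9 and 115.4 CPM in endoderm (3.13, SE 0.17, edgeR adjusted p = 3.87e-12). Hspg2 was called in endoderm, with 993.0 and 946.8 CPM against 396.3 and 377.0 CPM (1.33, SE 0.12, edgeR adjusted p = 9.53e-09). In mesoderm it was at 1069 and 1071 CPM against 607.5 and 764.8 CPM, which did not pass (0.64, SE 0.14, edgeR adjusted p = 0.00121). Col12a1, a collagen that decorates fibrils, was called in mesoderm (4.87, SE 0.69, edgeR adjusted p = 1.97e-05), where it was at 3.63 and 3.41 CPM against 0.0654 and 0.163 CPM. In endoderm Col12a1 was not called (2.51, SE 0.69, edgeR adjusted p = 0.00704), and the differences between the series were not tested. The fold of Col12a1 rests on a few WT counts, and its call and that of Vcan in mesoderm were lost without some single library.

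The gene that was lower at 48 h was Vcan, which encodes versican, a large hyaluronan-binding proteoglycan of mesenchyme. It was at 25.4 and 29.5 CPM in the Mtf2 null against 54.3 and 57.0 CPM in WT in mesoderm (log2 fold change -1.02, SE 0.14, edgeR adjusted p = 2.02e-05). In endoderm it was at 23.9 and 34.1 CPM against 78.6 and 69.5 CPM (-1.35, SE 0.16, edgeR adjusted p = 5.46e-07). The groups overlapped in neither series.

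Of the tests of change, which ask whether the Mtf2 null moved differently from WT between UD and 48 h, 3 of 32 genes were called in mesoderm (2.71% of all genes) and 8 of 31 in endoderm (5.24% of all genes). The change of Lama1, which went up in the Mtf2 null and down in WT, was higher in the Mtf2 null in both series, by 1.88 (SE 0.19, edgeR adjusted p = 2.39e-06) and 3.34 (SE 0.20, edgeR adjusted p = 9.53e-10) on the log2 scale. For Vcan the difference in change was -1.30 (edgeR adjusted p = 0.00027) and -1.48 (edgeR adjusted p = 6.27e-05), the Mtf2 null being at 30.4 to 40.1 CPM at UD, while the WT libraries went from 25.9 to 33.6 CPM at UD to the higher values above. Col5a1, low in undifferentiated Mtf2 null cells, regained the WT level by 48 h, at 14.9 and 10.5 CPM against 16.8 and 15.2 CPM in mesoderm and at 12.3 and 10.3 CPM against 13.6 and 12.3 CPM in endoderm. Its difference in change was 1.63 (edgeR adjusted p = 0.000921) and 1.89 (edgeR adjusted p = 0.000435).

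In endoderm the change was also higher in the Mtf2 null for Col4a2 (2.77), Col4a1 (2.62), Sparc (1.29) and Nid2 (1.24), and lower for Fn1 (-1.22, edgeR adjusted p = 5.36e-05). Fn1 was at 481.1 and 461.2 CPM in the Mtf2 null and at 538.4 and 584.0 CPM in WT at 48 h of endoderm, so that it went down from UD in the Mtf2 null and was no longer above WT. In mesoderm the changes of Col4a1 (0.87, edgeR adjusted p = 0.0089) and Col4a2 (1.12, edgeR adjusted p = 0.00114) were not called, and the difference between the series in this respect was not tested. Leaving out single libraries kept Lama1 alone of the 3 in mesoderm, and Col4a1, Col4a2, Fn1, Lama1 and Nid2 of the 8 in endoderm.

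In the Jarid2 null none of the genes was called at 48 h, neither of 32 in mesoderm (0.169% of all genes) nor of 31 in endoderm (0.125% of all genes). With an adjusted p under 0.05 and no fold threshold, 5 passed in mesoderm (2.21% of all genes) and 3 in endoderm (7.22% of all genes). Col4a1 was at 133.3 and 149.0 CPM in the Jarid2 null at 48 h of mesoderm, above both WT libraries (log2 fold change 0.71, SE 0.16, edgeR adjusted p = 0.017). Lama1, at 40.1 and 45.04 CPM, was below both (-0.60, SE 0.14, edgeR adjusted p = 0.024). In endoderm Col4a1 was at 45.1 and 45.5 CPM, which did not separate from WT (0.16, SE 0.16, edgeR adjusted p = 0.62).

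At 48 h the parietal and visceral endoderm markers were higher in the Mtf2 null in 13 of 13 tested in mesoderm (median log2 fold change 4.59) and 14 of 14 in endoderm (6.15). Their summed level, with Apoe in the sum, was 441.8 to 467.8 CPM in WT and 2349 to 2533 CPM in the Mtf2 null in mesoderm, and 360.6 to 386.1 CPM and 3073 to 3383 CPM in endoderm. Ttr (6.78 and 9.58), Amn (5.29 and 7.11) and Pth1r (5.61 and 6.94) were among the largest. In the Jarid2 null 0 of them were called in either series, and the summed level was 406.6 to 412.2 CPM in mesoderm and 338.2 to 380.1 CPM in endoderm. The other lists had few calls in the Mtf2 null, in mesoderm and endoderm respectively, where 6.82% and 10.5% of all genes were called. They were 2 (1 higher, 1 lower) and 3 mesenchyme markers, 1 and 1 fibroblast markers, 3 and 4 endothelial markers, all higher, 2 and 3 neural ectoderm markers, all lower, and 1 (lower) and 5 (4 higher, 1 lower) pluripotency markers. The part of these cells in the matrix differences was not tested.

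Enzymes that build collagen were called at 48 h. Of the genes for folding, secretion and crosslinking, 6 of 21 were higher in mesoderm and 1 lower, and 9 of 22 were higher in endoderm. Over all genes 6.82% and 10.5% were called. The prolyl hydroxylases P3h2 (4.69 and 3.501) and P4ha1 (2.51 and 2.59) and the lysyl oxidase Loxl2 (3.32 and 3.33) were higher in both. Of the integrins and other receptors, 2 of 21 were higher and 2 lower in mesoderm, and 3 of 22 higher and 1 lower in endoderm. Of the proteases and inhibitors, 6 were higher and 1 lower in mesoderm and 5 higher and 1 lower in endoderm, with the plasminogen activator Plat (3.27 and 3.79) and Timp2 (2.80 and 2.75) higher in both.

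Per kb of transcript, Col4a1 was at 249.4 CPM and Sparc at 243.7 CPM in the Mtf2 null at 48 h of endoderm, ahead of Lamc1 (162.1), Col4a2 (157.3) and Lama1 (142.2). In mesoderm Sparc was first (231.8 CPM per kb) and Col4a1 was next (172.3). In WT at 48 h, Nid2 (63.9 CPM per kb), Sparc (56.0) and Col18a1 (53.3) led in mesoderm, and Col18a1 (64.9), Nid2 (54.6) and Fn1 (48.0) in endoderm. The 43 genes took 0.323% to 0.367% of counts in WT and 0.883% to 0.902% in the Mtf2 null at 48 h of mesoderm, and 0.303% to 0.336% and 1.02% to 1.14% at 48 h of endoderm. Col3a1 and Postn stayed under 1 CPM in the WT and Mtf2 null libraries at UD and 48 h.

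In the EB time course the WT lines differed in how far interstitial matrix genes rose. The share of all the matrix genes in total CPM went from 0.457% at day 0 to 2.03% at day 7 in J1. It went from 0.516% to 0.786% in JM8 and fell from 0.562% to 0.425% in Pcl1-3 WT. Between day 0 and day 7, 26 of 41 tested genes were called in the 3 WT lines (25% of all genes), 24 higher and 2 lower, with a median log2 fold change of 2.00. With day 0 headed mono and day 7 headed eb, time and culture form cannot be told apart in this comparison. Calls here were made by limma on log2 CPM with a prior count of 2, at an adjusted p under 0.05. Col4a3 and Col4a4 were not tested. Leaving out the JM8 line left 1 call (0.0694% of all genes), leaving out J1 10 (7.23% of all genes) and leaving out Pcl1-3 WT 31 (28.5% of all genes). The folds moved with J1 in particular: without it Col1a1 was at 3.64 and Col3a1 at 4.79, and without JM8 at 5.23 and 7.02, close to the values of all 3 lines.

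Col1a1 at days 0, 2, 4 and 7 was at 5.83, 5.25, 3.03 and 27.7 CPM in Pcl1-3 WT, at 4.18, 2.74, 4.46 and 157.3 CPM in JM8, and at 5.67, 2.11, 110.6 and 1887 CPM in J1. All 3 lines were highest at day 7, over a wide range of levels (log2 fold change day 7 over day 0 5.19, SE 1.19, limma adjusted p = 0.0144). Col1a2, the partner chain of Col1a1, rose most, to 70.1, 221.3 and 1022 CPM at day 7 in Pcl1-3 WT, JM8 and J1 (8.06, SE 0.50, limma adjusted p = 8.67e-05). Its call was the only one kept whichever line was left out. Col3a1, the collagen of vessels and loose tissue, was at 1.90, 49.03 and 1576 CPM at day 7 (7.02, SE 1.43, limma adjusted p = 0.00968), and Postn at 2.14, 21.5 and 1363 CPM (6.61, SE 1.36, limma adjusted p = 0.00991). J1 was the highest and Pcl1-3 WT the lowest for each of these 4 genes.

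Basement membrane genes changed in both directions in the WT lines. Col4a1 (2.59, SE 0.43, limma adjusted p = 0.00474), Col4a2 (3.40, SE 0.46, limma adjusted p = 0.00222) and Lama4 (4.13, SE 0.92, limma adjusted p = 0.0133) were higher at day 7. Lama3 was lower (-1.98, SE 0.31, limma adjusted p = 0.00357), as was Lama5 (-0.60, limma adjusted p = 0.048). Lama1 did not pass (-0.80, SE 0.43, limma adjusted p = 0.191). The remaining calls were Col2a1, Col5a1, Col5a2, Col11a1, Col4a5, Col4a6, Col6a1, Col6a3, Col9a1, Col12a1, Col18a1, Lamb1, Tnc, Fbn1, Fbn2, Dcn and Vcan, all higher, from 0.93 for Lamb1 to 5.11 for Tnc. Of 15 mesenchyme markers 12 were higher and 0 lower at day 7, and of 16 parietal and visceral endoderm markers 10 were higher and 0 lower, beside calls for 25% of all genes. The part of such cells in these rises was not tested. Per kb, Fn1 was the highest of the genes at day 7 in each WT line, at 96.3, 232.9 and 462.4 CPM in Pcl1-3 WT, JM8 and J1.

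Libraries labelled Mtf2 null were compared with Pcl1-3 WT over the 4 days, with the day as a block and 1 sample per line and day. In this and the other mutant pairs the days stand in for replicates. The p-values therefore measure only how steady the difference was over the days. The study treats Pcl1-3 WT, JM8 and J1 as background-matched controls, but each genotype was 1 line, so genotype and line cannot be told apart. Of 41 genes 4 were called (7.51% of all genes), 3 higher and 1 lower. Col4a1 was at 44.9, 28.997, 25.9 and 129.1 CPM at days 0, 2, 4 and 7 in Pcl1-3 WT and at 289.1, 277.6, 567.0 and 1083 CPM in the libraries labelled Mtf2 null. It was higher on every day (log2 fold change 3.35, SE 0.27, limma adjusted p = 0.00173). Col4a2 was higher on every day too, ending at 616.2 against 102.9 CPM (3.40, SE 0.30, limma adjusted p = 0.00225). Lama1 was at 133.4, 138.1, 15.5 and 28.8 CPM against 279.5, 216.7, 66.3 and 152.9 CPM (1.54, SE 0.29, limma adjusted p = 0.0264), a narrower gap that held on 4 of 4 days.

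Lama3 went the other way from the monolayer. It was at 60.8, 37.6, 21.9 and 24.3 CPM in Pcl1-3 WT and at 9.14, 9.93, 5.23 and 4.14 CPM in the libraries labelled Mtf2 null (log2 fold change -2.25, SE 0.23, limma adjusted p = 0.00345). In J1, another WT line, it was at 12.0, 13.2, 3.46 and 2.75 CPM, close to the mutant values, and the difference from the monolayer was not tested. Lamb1 (0.26), Lamc1 (0.57) and Sparc (0.17), which were higher in the monolayer Mtf2 null, were not called here (limma adjusted p = 0.42, 0.0987 and 0.777). Without day 0, 11 genes were called (7.89% of all genes), the same 4 with Col4a5 (1.99), Col6a1 (2.23), Col12a1 (2.76), Lama4 (1.96), Postn (2.89), Tnc (3.10) and Fbn1 (1.74).

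**Figure D3:**
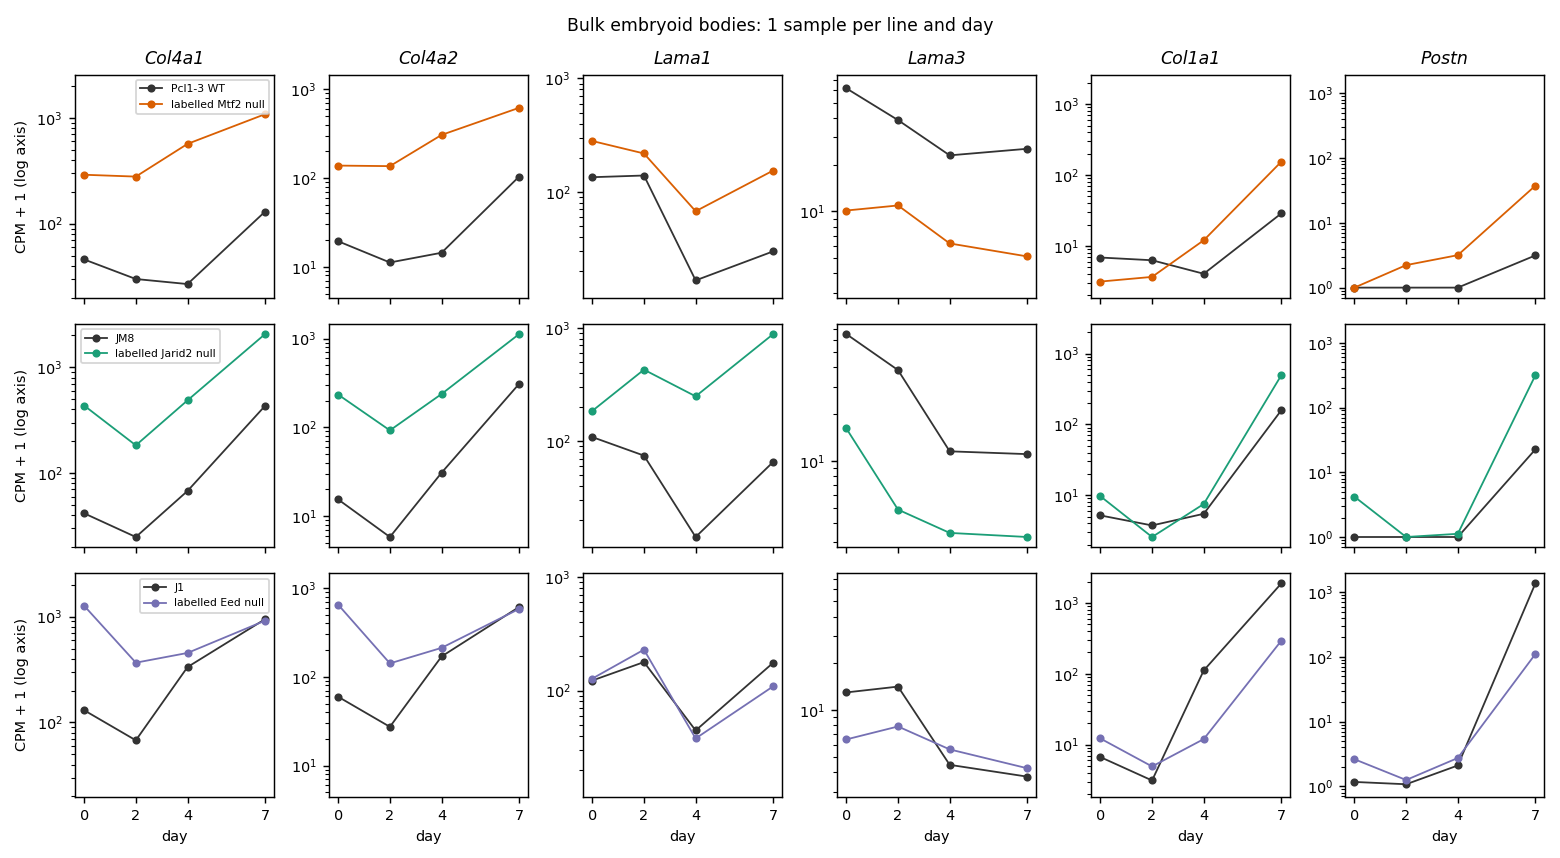
CPM plus 1 on a log axis of Col4a1, Col4a2, Lama1, Lama3, Col1a1 and Postn against day of EB differentiation (0, 2, 4 and 7), 1 row for each pair of a WT line and the mutant library labels compared with it. The day 0 columns are headed mono and the later ones eb. Each point is 1 sample; Col4a1 and Col4a2 of the labelled Mtf2 null and Jarid2 null lie above their WT line on every day, while Col1a1 and Postn of J1 lie above the labelled Eed null at day 7.

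Libraries labelled Jarid2 null differed from JM8 in 10 of 41 genes (13.4% of all genes), 9 higher and 1 lower. Col4a1 was at 40.6, 23.9, 66.8 and 431.0 CPM at days 0, 2, 4 and 7 in JM8 and at 433.5, 181.9, 485.9 and 2058 CPM in the labelled Jarid2 null. It was higher on every day (log2 fold change 2.86, SE 0.18, limma adjusted p = 0.000825). Col4a2 differed by 3.24 (SE 0.36, limma adjusted p = 0.00608). Lama1 was at 107.6, 73.5, 13.2 and 64.5 CPM against 183.8, 426.6, 247.6 and 880.5 CPM, again higher on every day (2.81, SE 0.51, limma adjusted p = 0.0182). The linkers Nid1 (1.20, limma adjusted p = 0.00765) and Nid2 (0.96, limma adjusted p = 0.0193), the laminin chains Lamb2 (1.10, limma adjusted p = 0.00762) and Lama4 (1.29, limma adjusted p = 0.0487), the cartilage collagen Col11a1 (1.38, limma adjusted p = 0.0295) and the microfibril gene Fbn1 (1.31, limma adjusted p = 0.016) were higher as well. Lama3 was at 64.2, 37.3, 10.5 and 10.1 CPM against 15.2, 3.86, 2.45 and 2.24 CPM (-2.29, SE 0.27, limma adjusted p = 0.00718). Without day 0, 8 were called (10.6% of all genes): Lama4 and Col11a1 left. Only Col4a1, Col4a2 and Lama3 were kept whichever single day was left out, in both this pair and the Mtf2 pair.

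Many endoderm markers were higher in the mutant libraries of these pairs too. Of 16 tested, 10 were higher in the libraries labelled Mtf2 null and 11 in those labelled Jarid2 null, with medians of 2.85 and 2.63. Summed, with Apoe in the sum, they were at 204.4, 230.3, 509.2 and 306.7 CPM in Pcl1-3 WT and at 473.5, 721.3, 1564 and 3368 CPM in the labelled Mtf2 null. In JM8 they were at 455.6, 361.7, 497.7 and 452.7 CPM, and at 536.1, 697.7, 1651 and 5537 CPM in the labelled Jarid2 null. The part of these cells was not tested. The collagen folding and crosslinking genes had 4 and 10 calls in the Mtf2 and Jarid2 pairs, all higher, of 23. The receptors had 3 and 3 of 23, all higher, and the proteases and inhibitors 3 higher with 1 lower, and 2 higher, of 18. Over all genes 7.51% and 13.4% were called, so these last lists were near the all-gene share in the Jarid2 pair. Without day 0, 11 and 11 endoderm markers were called, all higher, 3 and 7 folding and crosslinking genes, and 3 and 2 receptors, all higher, with 4 higher and 1 lower, and 2 higher and 1 lower, among the proteases and inhibitors. The shares over all genes were then 7.89% and 10.6%.

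Libraries labelled Eed null differed from J1 in 2 of 41 genes (8.74% of all genes), both higher. Col11a1 was at 2.06, 1.83, 2.78 and 24.8 CPM in J1 and at 18.7, 12.4, 12.1 and 56.1 CPM in the labelled Eed null (log2 fold change 2.16, SE 0.33, limma adjusted p = 0.0216). Col12a1 was at 1.54, 0.200, 1.87 and 23.3 CPM against 5.90, 1.09, 7.17 and 119.5 CPM (1.78, SE 0.28, limma adjusted p = 0.0222). Both were higher on every day, yet neither call was kept when a day was left out. Leaving out a day removed nearly all calls of this pair, with at most 6 of 15842 genes left (0.0189% without day 0), while Col11a1 stayed between 1.89 and 2.49 and Col12a1 between 1.60 and 1.93. For Col4a1, J1 gave 129.4, 66.8, 332.9 and 945.6 CPM and the labelled Eed null gave 1266, 366.2, 453.0 and 915.0 CPM. It was above J1 at days 0, 2 and 4 and just below at day 7, and did not pass (1.53, SE 0.55, limma adjusted p = 0.132). Col1a1 at day 7 was at 292.1 against 1887 CPM, Postn at 109.7 against 1363 CPM and Col3a1 at 197.8 against 1576 CPM, but on earlier days they were not ordered this way throughout and none was called. No endoderm marker was called for this pair.

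In single cells, with 1 library per genotype and day, values are given as UMI CPM (on the CPM scale, over all UMIs of a library or cluster) with 95% intervals that cover counting error only, and no test was run. The same well barcodes were used on every plate by design, and no doublet caller was run. The 39 genes took 0.141%, 0.126%, 0.289% and 0.512% of UMIs at days 0, 4, 7 and 10 in WT, 0.131%, 0.116%, 0.252% and 0.376% in the Mtf2 null, 0.126%, 0.1003%, 0.132% and 0.282% in the Jarid2 null, and 0.195%, 0.187%, 0.251% and 0.654% in the Eed null. The share was highest at day 10 in each genotype, and the Eed null had the highest share at days 0, 4 and 10.

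Col4a1 at days 0, 4, 7 and 10 was at 10.7, 14.5, 142 and 58.7 UMI CPM in WT. In the Mtf2 null it was at 5.14 (3.14 to 7.94), 13.2, 59.4 and 138 (123 to 155), and in the Jarid2 null at 9.97, 19.0, 24.7 and 115. At day 0 the interval of the Mtf2 null reached into that of WT (7.32 to 15.1), and the excess seen in the undifferentiated monolayer Mtf2 null was not present in these cells. The Eed null was at 123 (111 to 135), 162, 149 and 256 UMI CPM, with the ratio to WT largest at days 0 and 4. It was above every other genotype at days 0, 4 and 10 and close to WT at day 7.

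Lama1 was highest at day 0 in WT (56.5, interval 48.3 to 65.7) and the Eed null (55.7, 48.0 to 64.2) and was lower at day 4 in every genotype, at 4.03 to 9.34. In the undifferentiated clusters it was at 34.7 in the Mtf2 null cells of cluster 0 and 60.6 in the WT cells of cluster 3. Sparc was at 180 and 248 there, so neither gene showed its monolayer excess in these Mtf2 null cells. Lamb1 (40.4 and 26.3) and Fn1 (477 and 421) were higher in the Mtf2 null cells. Sparc was at 244 UMI CPM at day 0 and 864 at day 10 in WT, at 178 and 911 in the Mtf2 null, at 127 and 391 in the Jarid2 null and at 542 and 1167 in the Eed null. The Jarid2 null had the lowest Sparc on all 4 days. Fn1, at 426, 486, 640 and 482 at day 0, was already abundant at day 0 in each genotype.

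The interstitial genes appeared late. Col1a1 was under 3 UMI CPM in every library at days 0 and 4 and at 16.3 to 53.7 at day 7. At day 10 it was at 599 (560 to 641) in WT, 125 (111 to 141) in the Mtf2 null, 61.7 (50.5 to 74.5) in the Jarid2 null and 383 (350 to 418) in the Eed null. In the same order of genotypes, Postn at day 10 was at 303 (275 to 334), 23.2 (17.2 to 30.5), 43.8 (34.5 to 54.8) and 297 (269 to 328), and Col3a1 at 368, 62.04, 80.7 and 434. WT and the Eed null were the high pair for each of these 3 genes, and the Mtf2 null and Jarid2 null the low pair, with no overlap of counting intervals between the pairs. Summed mesenchyme markers at day 10 were at 1752, 1290, 739.4 and 2810 UMI CPM in the same order of genotypes, and their part in the difference was not tested. Vcan did not follow this order, at 315, 390, 207 and 539.

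**Figure D4:**
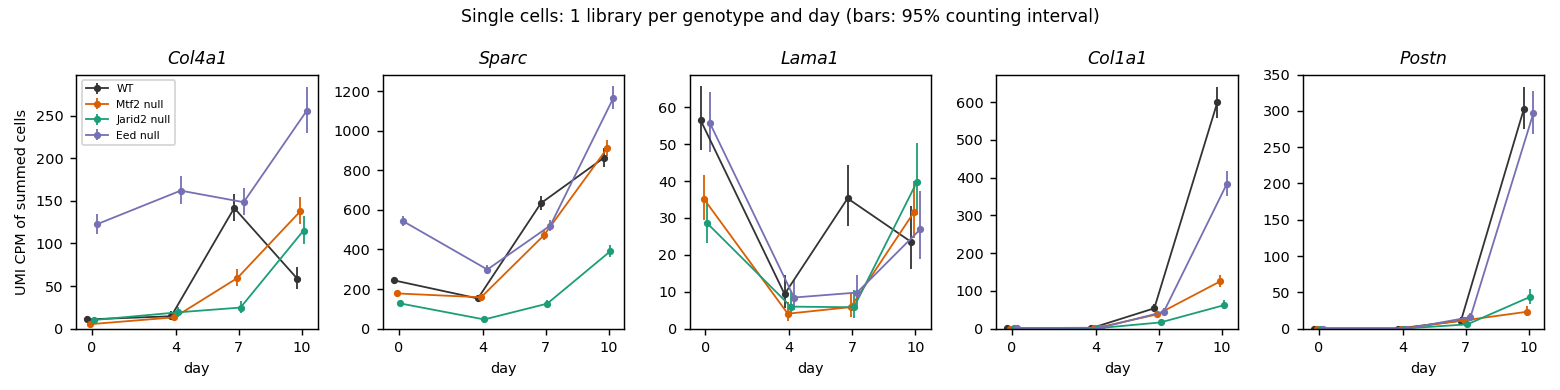
UMI CPM, with 95% counting intervals, of Col4a1, Sparc, Lama1, Col1a1 and Postn against day of EB differentiation (0, 4, 7 and 10), 1 line per genotype and 1 library per point. Eed null Col4a1 lies above the other genotypes at days 0 and 4, and Col1a1 and Postn appear at day 7 and separate WT and Eed null from Mtf2 null and Jarid2 null at day 10.

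Across the 22 clusters of the authors (resolution 2.5), 4 held far more matrix transcripts than the rest. The clusters were built from gene expression, so their differences are a description. Cluster 21, which the authors class as endodermal, had 0.681% of UMIs in these genes, cluster 13 had 0.671%, cluster 4 had 0.639% and cluster 19 had 0.616%, these last 3 being classed as mesodermal. Next were cluster 20 (0.373%) and cluster 14 (0.297%), and the lowest was cluster 18 (0.0924%). The value of cluster 21 rests on part of its 47 cells, since the median cell had 0.261%, against medians of 0.610%, 0.485% and 0.582% in clusters 13, 4 and 19. The order of the clusters was not the same within genotypes: the share was 0.527% in the Mtf2 null cells of cluster 21, 0.708% in the Eed null cells of cluster 13, 0.551% in the Jarid2 null cells of cluster 19, and 0.887% in the WT and 0.508% in the Mtf2 null cells of cluster 4.

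Cluster 21, with 33 Mtf2 null cells of 47, was the basement membrane cluster. Over all its cells Sparc was at 2997 UMI CPM (2833 to 3167), Col4a1 at 1063 (966 to 1166), Lamb1 at 517 (450 to 591), Col4a2 at 472 and Lama1 at 256 (210 to 309). In the Mtf2 null cells Sparc was at 2283, Col4a1 at 630.4 and Lama1 at 111, and in the other 14 cells at 3912, 1617 and 443. The days of these cells differed. In the 22 Mtf2 null cells of day 7 the values were 393, 118 and 0 (0.224% of UMIs in the matrix genes). In the 11 of day 10 they were 5787, 1580 and 316 (1.09%). Of the other cells, Col4a1 was at 1644 in 6 WT of day 7 and 4415 in 3 Jarid2 null of day 10. It was at 415 in 2 Eed null of day 7, 181 in 2 WT of day 10 and 0 in 1 WT of day 4. Col4a1 had a UMI in 59.6% of its cells (exact interval 44.3% to 73.6%, median 6673 UMIs) and in 4.40% of the cells of cluster 0, which the authors place in the undifferentiated state, at a median of 9973 UMIs. Thinned to 2500 UMIs per cell, these shares were 42.2% and 1.10%. The parietal and visceral endoderm markers summed to 5282 UMI CPM there. Col1a1 was at 16.8 UMI CPM (6.74 to 34.5), low beside the mesodermal clusters.

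Clusters 4 and 13 held the interstitial genes. In cluster 4 Col1a1 was at 561 UMI CPM (530 to 593), Col1a2 at 438, Col3a1 at 314 and Postn at 252, and in cluster 13 they were at 396, 652, 484 and 288. Col1a1 had a UMI in 57.1% of the cells of cluster 4 (51.5% to 62.6%) and in 0 of the 386 cells of cluster 0 (exact upper limit 0.951%). Mesenchyme markers summed to 3191 UMI CPM in cluster 4 and 2937 in cluster 13. Within cluster 4 the genotypes differed: WT (122 cells) had Col1a1 at 1173, Col3a1 at 656 and Postn at 560, the Mtf2 null (159 cells) had 227, 108 and 52.1, and the Jarid2 null (40 cells) had 314, 253 and 239. The days of these cells differed (day 10 for 90 of the WT, 80 of the Mtf2 null and 33 of the Jarid2 null cells, day 7 for the rest). At day 10 alone Col1a1, Col3a1 and Postn were at 1507, 899 and 762 in WT, 347, 159 and 70.1 in the Mtf2 null and 283, 262 and 242 in the Jarid2 null. At day 7 they were at 401, 93.5 and 93.5 in 32 WT cells and at 117, 61.1 and 35.6 in 79 Mtf2 null cells, so the order of WT and Mtf2 null held on both days. Cluster 13 was almost all Eed null (197 of 226 cells), and 25 Jarid2 null cells in it had Col3a1 at 615.17 and Sparc at 293, against 485 and 1222 in the Eed null cells.

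Cluster 19 combined Fn1 (2009 UMI CPM), Sparc (1410), Col4a1 (533, interval 466 to 607.01), Col18a1 (410) and Nid1 (262) with little Col1a1 (30.6), and endothelial markers summed to 3030. Lama1 there was at 14.1 (5.19 to 30.8), far under its level in cluster 21. Cluster 20 and cluster 14 owed their rank to Fn1, at 1980 and 1723, which had a UMI in 49 of 49 and 188 of 190 cells. Cluster 15, an ectodermal cluster, was marked by Col2a1 at 176 UMI CPM (149 to 206), present in 53.7% of cells and at 1.26 in cluster 0.

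**Figure D5:**
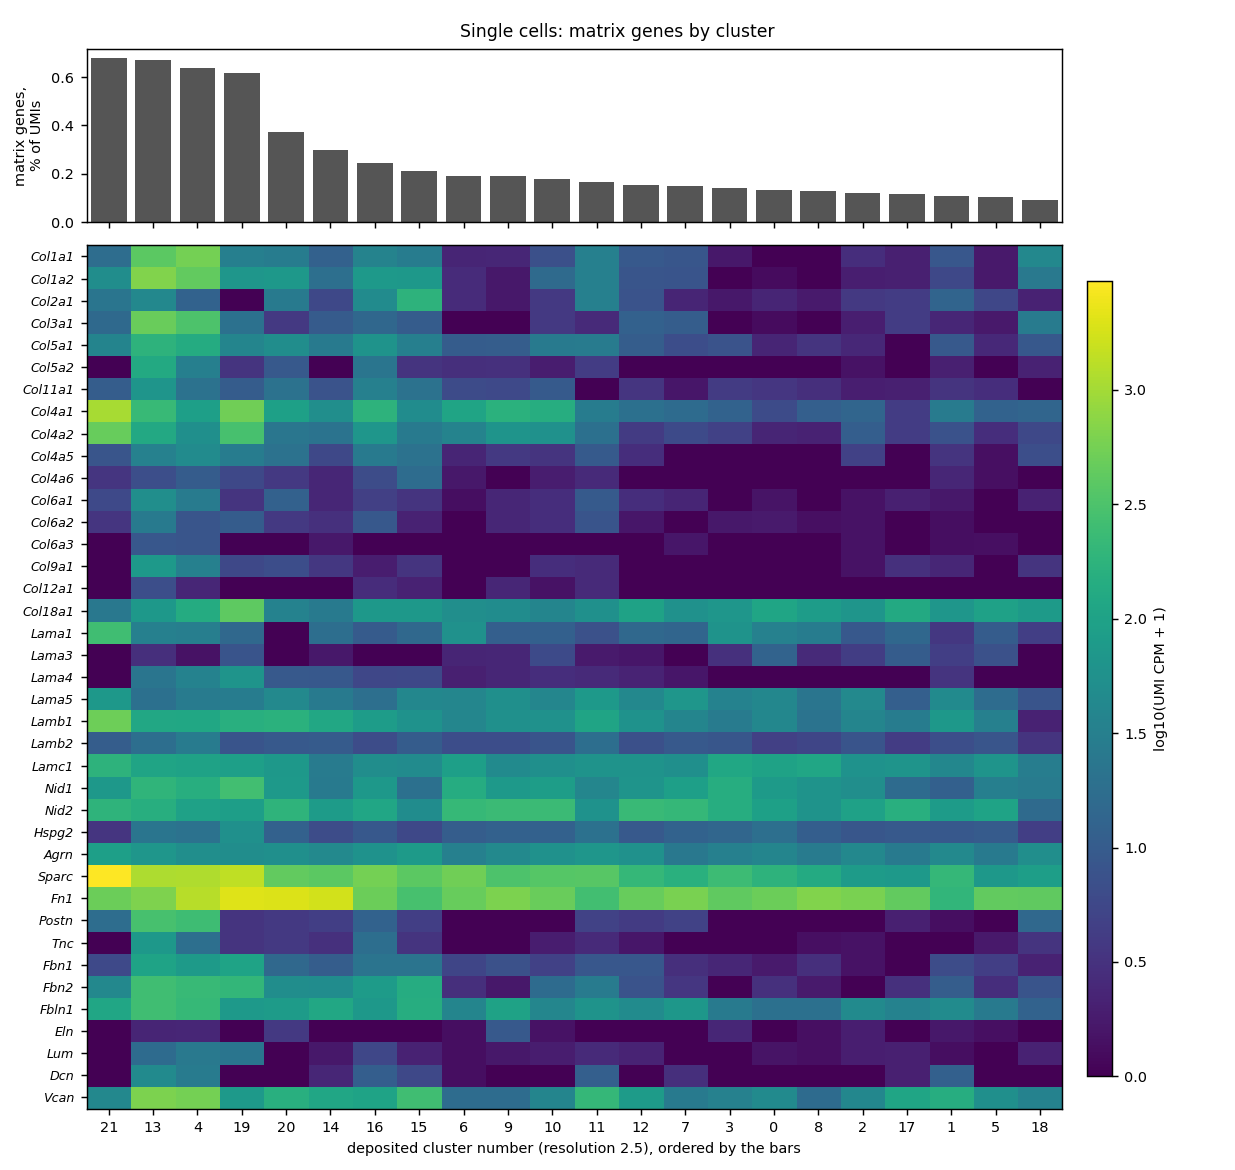
The bars give the share of UMIs (percent) in the 39 matrix genes for each of the 22 clusters, and the heat map gives log10 of UMI CPM plus 1 of each gene in each cluster. Clusters 21, 13, 4 and 19 stand out, with type IV collagen and laminin genes in 21, fibrillar collagens and Postn in 4 and 13, and Fn1 with Col4a1 and Col18a1 in 19.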

How the data were processed

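The deposited monolayer tables held Salmon estimated counts per gene, which the authors made from reads mapped to GRCm38/mm10. They were rounded to whole numbers. The labels give a polyA library and the methods a RiboErase rRNA depletion. The deposited EB table held normalised signal values (gene counts divided by size factors), and whole reads were recovered in 45 of 46 columns (100% of values within 0.02 of a whole read, 3005707 to 22944105 reads per column). A sample's columns were averaged, giving 24 samples. The deposited single-cell file held UMI counts per gene and cell, with the authors' clusters. Bowtie2 and HTSeq are also named in the submitters' processing notes, and their versions are not given in the sources used here.

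Monolayer counts were tested with edgeR 4.0.16 (TMM, filterByExpr with a minimum count of 10 and total of 15, quasi-likelihood F test, adjusted p under 0.001 and absolute log2 fold change over 1). UD comparisons used all 48 libraries, averaged over the series, and the others the 24 of a series. SE is the absolute log2 fold change over the square root of F. EB values were tested with limma 3.58.1 on log2 CPM (prior count 2, at least 1 CPM in 4 samples, day as block, 8 samples per pair, adjusted p under 0.05). For the WT lines, day 7 was compared with day 0 over 12 samples with line as block. R 4.3.3, Python 3.11.15, scipy 1.17.1 and matplotlib 3.10.9 were used. Scripts were tested on simulated data.

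The 43 genes, the 9 marker and context lists and the thresholds were chosen with earlier results of these data known. Every one of the 43 genes could be named. From each list, at most 4 called genes were named, by size of log2 fold change, among those higher (or lower) in every library than in every control library. Endoderm columns headed 28 h were taken as Jarid2 null 48 h by library number. Alternatives were DESeq2 1.42.0, other filters, thresholds, prior counts, a replicate block and leaving out each library. A fit on summed UD libraries was added after seeing the data. Single-cell intervals are exact Poisson and binomial (Clopper-Pearson) ones, and a count of 0 allows up to 3.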

Additional observations from a re-analysis of the deposited data

Results flagged for a closer look

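In 11 tests of the difference in change between UD and 48 h, the Mtf2 null and WT differed past the threshold of edgeR's quasi-likelihood test. In mesoderm these were Lama1 (1.88 on the log2 scale), Col5a1 (1.63) and Vcan (-1.30). In endoderm they were Lama1 (3.34), Col4a2 (2.77), Col4a1 (2.62), Col5a1 (1.89), Sparc (1.29), Nid2 (1.24), Fn1 (-1.22) and Vcan (-1.48). A positive value means that the change (48 h over UD, log2) was higher in the Mtf2 null than in WT, and a negative value that it was lower.

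In 2 of 78 groups of 4 undifferentiated libraries a single library lay far from the others, where chance alone gives about 1 in 20 groups. Col2a1 was at 1.49 CPM in Jarid2 null replicate 1 of the mesoderm series, and the nearest other library of that genotype was at 1.92 CPM. Fbn2 was at 0.682 CPM in WT replicate 2 of the mesoderm series, and the nearest other WT library was at 2.53 CPM. Neither gene was called between the genotypes and WT in undifferentiated cells.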

How the results depend on the processing

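Of 1148 values of called genes under the alternatives, 953 kept their direction and their side of the threshold, 195 kept the direction only and 0 reversed. In the monolayer the alternatives include the adjusted p under 0.05 with any fold in the same fit. Every called gene passes that by construction, so those values say nothing of robustness. Of 36 single-cell values, 22 moved by less than their counting interval. The 14 that moved further were 11 shares of cells with a UMI, all lower once thinned to 2500 UMIs per cell (Col4a1 in the Eed null at day 0, 55.6% to 21.7%), and 3 levels (Sparc in the Eed null at day 10, 1167 to 1025 as a mean over cells and 1084 without large cells, and Col1a1 in the Jarid2 null at day 10, 61.7 to 77.1 as a mean over cells). At an adjusted p under 0.05 with any fold, the counts of the 12 monolayer comparisons were 25 (UD, Mtf2 null against WT), 10 (UD, Jarid2 null against WT), 22 (UD, Mtf2 null against Jarid2 null), 7 (WT change between series), 18, 13, 5 and 13 (mesoderm WT over time, Mtf2 null, Jarid2 null and difference in change) and 17, 17, 3 and 11 (the same in endoderm), beside 2.21% to 52.4% of all genes. With no filter on low counts they were 1 for undifferentiated Jarid2 null (367 of 40129 genes), 2 for the WT change between series (472 of 40129) and 5 for the mesoderm difference in change (1035 of 37690). DESeq2 gave 2 for the WT change between series (303 of 14281 genes). Leaving out single libraries gave ranges of 9 to 13, 8 to 11 and 0 to 0 for the undifferentiated Mtf2 null against WT, Mtf2 null against Jarid2 null and Jarid2 null against WT, 0 to 1 for the WT change between series, 6 to 8, 8 to 9, 0 to 0 and 1 to 4 in mesoderm and 5 to 8, 9 to 10, 0 to 0 and 5 to 8 in endoderm. Over all 19162 to 20501 genes tested, the ranges in the same order were 2534 to 2820, 2469 to 2623, 180 to 265 and 170 to 278. In mesoderm they were 1058 to 1610, 876 to 1140, 10 to 23 and 211 to 494, and in endoderm 1103 to 1508, 1542 to 1939, 6 to 114 and 646 to 1135. A UD library left out may have its like in the other series, so the ranges of the UD comparisons are a weak check. Summing same-numbered UD libraries, chosen after seeing the data, gave 11, 0 and 9 for Mtf2 null against WT, Jarid2 null against WT and Mtf2 null against Jarid2 null (2194, 85 and 2072 of 19697 genes). In EBs, no filter gave 0 calls in each pair (4, 1 and 0 of 25855 genes for Mtf2, Jarid2 and Eed) and 13 in the WT lines (2607 of 25855). A fit without the day block gave 2, 0 and 0 (256, 151 and 8 of 15842 genes). For the Mtf2 pair, 1 fit of all 24 samples gave 8 of 41, near the share of all genes it called (2928 of 15842). EdgeR on recovered reads gave 8 (1045 of 15842 genes) and leaving out day 0 gave 11 (1250 of 15842). The Jarid2 pair gave 3 without day 4 and 3 without day 7 (167 and 143 of 15842 genes), and the Eed pair 0 without any day (at most 6 genes). The WT lines gave 1 without JM8 and 10 without J1 (11 and 1146 of 15842 genes). The causes were not tested.

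With the replicate number as a block the mesoderm difference in change gave 2 calls in place of 3, and the block changed no other monolayer count. Within a series the numbers do not pair the libraries of different groups: the correlation of same-numbered deviations had a median of 0.0069 in mesoderm (-0.183 to 0.267, 6 of 66 over 0.1) and 0.0102 in endoderm (-0.157 to 0.201, 4 of 66). Across the series, undifferentiated libraries of a genotype did resemble each other by number, as described above. Counts of a few CPM limit Eln, Lamb3, Col12a1, Col1a1 and the untested genes.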
